A study of Mus musculus with 7 samples.

Results

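The receptors of the common gamma chain family and their kinase Jak3 were examined in EML cells, a mouse haematopoietic progenitor line, after sorting for the surface marker CD34. The 9 genes were chosen by symbol: the shared chain Il2rg, the private chains Il7r, Il4ra, Il2ra, Il2rb, Il9r, Il15ra and Il21r, and Jak3. Each had 1 row among the 20464 of the table. The CD34-positive group holds 3 libraries and the CD34-negative group 4, all labelled as Erythroid-Myeloid-Lymphoid cells of strain C57BL/6, with apoptotic cells removed by Annexin V before sorting and no treatment named. Tissue and age labels name bone marrow and a postnatal day and were not used, since the source label names the line, and a genotype label of the CD34-negative libraries reads CD43. EML cells are a line immortalised with a dominant-negative retinoic acid receptor, so they stand for 1 immortalised line and not for marrow. Separate cultures are not named, so each p-value reflects only how far these samples scatter, possibly for technical reasons.

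The common gamma chain pairs with private chains to form the receptors for IL-2, IL-4, IL-7, IL-9, IL-15 and IL-21. It has no kinase domain and signals through Jak3, which binds its tail, while Jak1 binds the private chains. The kinases then phosphorylate STAT factors, mainly STAT5, STAT6 and STAT3. Loss of the chain or of Jak3 blocks lymphoid development in mouse and human, and IL-7 is the main cytokine of early lymphoid progenitors.

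The promoters of Il2rg and Jak3 are shown because these were the most abundant members, and that of Il9r because it was the tested member with the lower mean in CD34-positive cells. Each runs from 250 bases before to 50 bases after the RefSeq start of the gene on build GRCm38.p6, and capitals mark matches to the searched letters.
Il2rg promoter, chrX:101268206-101268505, minus strand: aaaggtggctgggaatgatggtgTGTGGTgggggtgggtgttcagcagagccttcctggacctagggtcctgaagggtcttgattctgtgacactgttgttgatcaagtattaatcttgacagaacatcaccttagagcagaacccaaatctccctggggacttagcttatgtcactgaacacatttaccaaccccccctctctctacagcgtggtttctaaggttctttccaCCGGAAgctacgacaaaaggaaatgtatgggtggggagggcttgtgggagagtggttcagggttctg
Jak3 promoter, chr8:71676133-71676432, plus strand: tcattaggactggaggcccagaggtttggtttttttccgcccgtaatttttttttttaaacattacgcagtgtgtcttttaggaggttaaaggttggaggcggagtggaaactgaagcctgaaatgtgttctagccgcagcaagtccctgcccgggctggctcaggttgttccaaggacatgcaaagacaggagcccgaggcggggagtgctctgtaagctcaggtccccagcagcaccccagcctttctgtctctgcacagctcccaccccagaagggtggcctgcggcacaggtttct
Il9r promoter, chr11:32200230-32200529, minus strand: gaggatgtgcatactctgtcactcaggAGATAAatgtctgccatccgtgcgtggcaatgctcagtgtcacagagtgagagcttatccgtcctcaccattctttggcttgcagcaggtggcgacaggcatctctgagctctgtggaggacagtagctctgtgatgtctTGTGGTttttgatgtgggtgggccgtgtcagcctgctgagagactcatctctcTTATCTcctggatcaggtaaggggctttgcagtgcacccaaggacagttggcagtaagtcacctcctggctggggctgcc
Both strands were searched, and shares are of all 32851 promoter windows of 300 bases. The letters CCGGAA, bound by ETS factors, stand in 14.9% of the windows. The Runx letters TGTGGT stand in 16.8% of them. For STAT factors the search used TTCNNNGAA, which 8.3% hold. For GATA factors it used AGATAA, found in 11.2%. The Il2rg window held TGTGGT at -227 and CCGGAA at -17 from the start. The Jak3 window held none of these letters, and the Il9r window held AGATAA at -223, TGTGGT at -83 and its GATA letters on the other strand at -30. Among the other members, the Il7r window held a STAT and a Runx match, 1 of the Il15ra windows an ETS match and that of Il21r a Runx match, while those of Il4ra and Il2ra held none. Of the 9 members, 8 had a window in the RefSeq table, all but Il2rb. In RefSeq order Il4ra and Il21r are neighbouring coding genes on chromosome 7, and Il2ra and Il15ra are neighbours on chromosome 2. Il2rg lies on chromosome X and Jak3 on chromosome 8.

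The libraries differed in ways that cross the groups. Cd34 stood at 147, 256 and 153 FPKM in CD34-positive replicates 1, 2 and 3, against 91.8, 19.3, 2.67 and 6.02 FPKM in CD34-negative replicates 1, 2, 3 and 4. CD34-negative replicate 1 thus lay nearer to the CD34-positive libraries than to the rest of its group. Ribosomal protein genes made up 27.8% to 37.3% of all FPKM in both groups' replicates 1 and 2, but 2.31% to 4.23% in CD34-positive replicate 3 and CD34-negative replicates 3 and 4, which share the number 4 in the descriptions. Comparisons within a number are therefore given beside those of the groups. The progenitor markers Kit, Tal1, Lmo2, Myb, Runx1 and Gata2 were above 1 FPKM in all 7 libraries. In such bulk samples fewer cells of a type and less RNA per cell cannot be told apart. With limma 0 of 9259 genes (0%) had an adjusted p under 0.05 in either direction. Unadjusted, 313 genes (3.38%) were higher with p under 0.05 and 210 (2.27%) lower.

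In every library pair of equal number, Il2rg and Jak3 were more abundant in the CD34-positive library, and neither passed over all genes. The most abundant private chains, Il4ra and Il9r, were several times less abundant than Jak3 on average and overlapped between the groups. Il7r varied more between libraries of the same group than between groups. Of the other chains of the IL-2 and IL-15 receptors, Il2ra and Il15ra stayed under 0.2 FPKM in every library, and Il2rb was above 1 FPKM only in CD34-positive replicate 2. Of the 9 members, 5 passed the minimum of 1 FPKM in 3 libraries (Il2rg, Jak3, Il4ra, Il9r and Il7r).

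**Figure D1:**
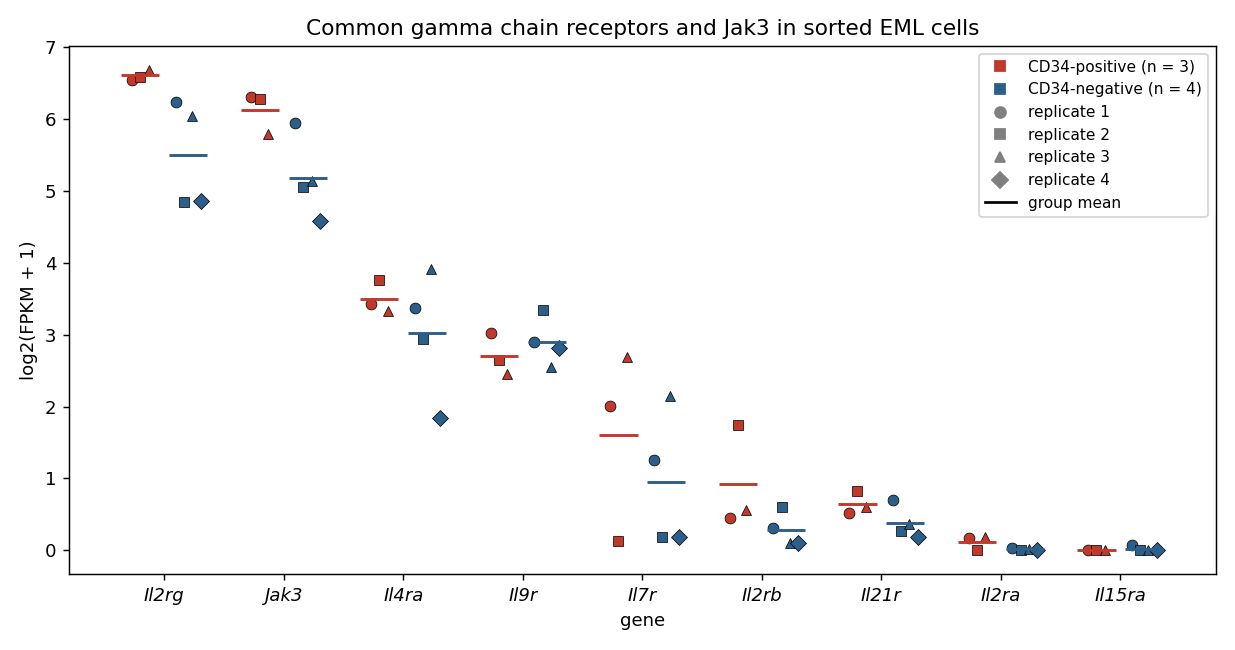
Level of each member as log2(FPKM + 1) in every library, ordered by mean level, with CD34-positive libraries in red left of CD34-negative libraries in blue and group means as bars. The 3 CD34-positive points of Il2rg, at 92.7 to 102 FPKM, lie above all 4 CD34-negative points, which end at 74.4 FPKM; in the other members the groups overlap.

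Il2rg, the chain shared by all receptors of the family, stood at 92.7, 95.5 and 102 FPKM in CD34-positive replicates 1, 2 and 3, against 74.4, 27.7, 64.7 and 28.1 FPKM in CD34-negative replicates 1, 2, 3 and 4. In FPKM as deposited, CD34-positive libraries lay close together and above every CD34-negative library, whose highest value was 2.69 times the lowest. Summed FPKM differed between libraries, from 260352 in CD34-positive replicate 3 to 733955 in CD34-negative replicate 2. By rank within a library the groups overlapped. CD34-negative replicate 3 had Il2rg at percentile 92.7 of the tested genes, above CD34-positive replicates 1 (90.5) and 2 (89.6). Among all tested genes, 2.67% lay higher in CD34-positive cells without overlap and 3.01% lower, beside 1 and 0 of the 5 tested members. Mean Il2rg was 96.7 ± 4.67 FPKM (SD, n = 3) over the CD34-positive libraries and 48.7 ± 24.4 FPKM (SD, n = 4) over the CD34-negative ones, a ratio of 1.98. The difference was 1.11 on the log2(FPKM + 1) scale (SE 0.45), which missed the threshold over all genes (limma, Benjamini-Hochberg adjusted p = 0.815; unadjusted p = 0.0364). Within numbers it was 0.31 in replicate 1 and 1.75 in replicate 2, and CD34-positive replicate 3 exceeded CD34-negative replicates 3 and 4 by 0.65 and 1.82. The smallest difference was thus in the replicate whose CD34-negative library held the most Cd34. The next smallest, 0.65, was against CD34-negative replicate 3, which held the least Cd34 (2.67 FPKM). A link between Il2rg and Cd34 was not tested. Without both replicate 1 libraries, left out after the data were seen, the group difference was 1.39 (limma adjusted p = 0.949).

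Jak3, the kinase bound to the shared chain, stood at 78.5, 76.5 and 54.2 FPKM in CD34-positive replicates 1, 2 and 3, against 60.5, 32.3, 34.3 and 23.0 FPKM in CD34-negative replicates 1, 2, 3 and 4. Groups overlapped, since CD34-negative replicate 1 exceeded CD34-positive replicate 3, but no CD34-negative library exceeded the CD34-positive library of its own number. Mean Jak3 was 69.7 ± 13.5 FPKM (SD, n = 3) over the CD34-positive libraries and 37.6 ± 16.1 FPKM (SD, n = 4) over the CD34-negative ones. The difference was 0.94 on the log2(FPKM + 1) scale (SE 0.39; limma adjusted p = 0.853; unadjusted p = 0.0412), and 0.37, 1.22, 0.64 and 1.199 within numbers. With the description number as a block it was 0.85 (SE 0.21; adjusted p = 0.0985), and that of Il2rg was 1.11 (SE 0.35; adjusted p = 0.145). Of the 5 tested members, Il2rg and Jak3 were higher in every pair of equal number, as were 21.4% of all tested genes. With the block both had an unadjusted limma p under 0.05, a level at which 12.8% of all tested genes were higher and 9.14% lower.

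**Figure D2:**
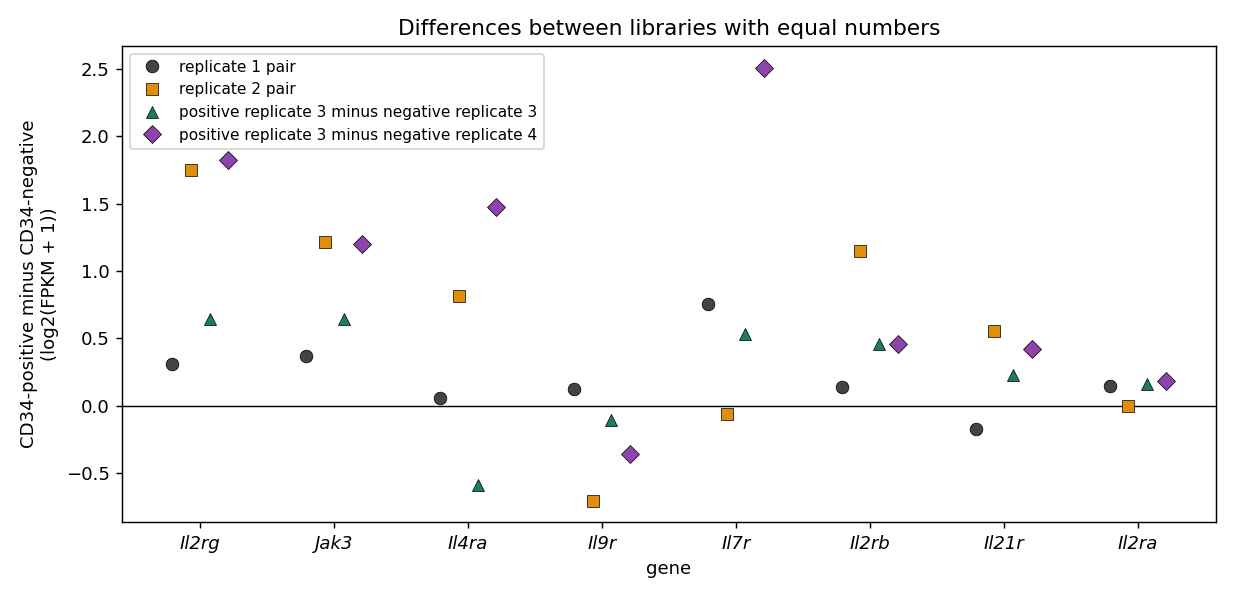
CD34-positive minus CD34-negative difference on the log2(FPKM + 1) scale within libraries of equal number, for 8 members, with CD34-positive replicate 3 set against CD34-negative replicates 3 and 4 in turn. All 4 points of Il2rg, Jak3 and Il2rb lie above 0, those of Il4ra, Il7r, Il9r and Il21r lie on both sides, and Il2ra has 1 point at 0. Il2rb, Il21r and Il2ra did not reach the minimum of 1 FPKM in 3 libraries.

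Il4ra, the private chain of the IL-4 receptor and a part of the IL-13 receptor, stood at 9.73, 12.5 and 9.005 FPKM in CD34-positive replicates 1, 2 and 3, against 9.32, 6.66, 14.1 and 2.60 FPKM in CD34-negative replicates 1, 2, 3 and 4. Both the highest and the lowest value were CD34-negative. On the log2(FPKM + 1) scale it differed by 0.48 (SE 0.47; limma adjusted p = 0.99995), and within numbers 0.06, 0.82, -0.59 and 1.48. Without CD34-negative replicate 4 it was 0.09 and without CD34-negative replicate 3 it was 0.78. CD34-negative replicate 3, with the most Il4ra, also held the most Mcpt4, a mast cell protease. Mcpt4 was at 8.95 to 20.2 FPKM over the CD34-positive libraries and 43.5 to 1752 FPKM over the CD34-negative ones. CD34-negative replicate 2 held 308 FPKM of Mcpt4 but less Il4ra than any CD34-positive library. Of 7 tested mast cell markers, 5 were lower in every pair of equal number, against 18.9% of all tested genes. Cpa3 was not among them, with means of 2400 FPKM over the CD34-positive and 1466 FPKM over the CD34-negative libraries. The summed level of 8 mast cell markers was 2135 to 3214 FPKM over the CD34-positive libraries and 1662 to 11036 FPKM over the CD34-negative ones, and none was at 0 in all libraries. Their part in the Il4ra values was not tested.

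Il9r, the private chain of the IL-9 receptor, stood at 7.13, 5.25 and 4.46 FPKM in CD34-positive replicates 1, 2 and 3, against 6.47, 9.19, 4.87 and 6.00 FPKM in CD34-negative replicates 1, 2, 3 and 4. Groups overlapped, with the lowest value in CD34-positive replicate 3 and the highest in CD34-negative replicate 2. The difference was -0.20 (SE 0.30; limma adjusted p = 0.99995), and within numbers 0.12, -0.70, -0.10 and -0.36. It was -0.05 without CD34-negative replicate 2, -0.07 without CD34-positive replicate 3, -0.31 without CD34-negative replicate 3 and -0.36 without CD34-positive replicate 1.

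Il7r, the private chain of the IL-7 receptor and a partner of Crlf2 in the TSLP receptor, stood at 3.03, 0.0945 and 5.44 FPKM in CD34-positive replicates 1, 2 and 3, against 1.39, 0.140, 3.45 and 0.132 FPKM in CD34-negative replicates 1, 2, 3 and 4. In each group the libraries split into some above 1 FPKM and some under 0.2 FPKM, and both replicate 2 libraries were among the low ones. The difference was 0.67 (SE 0.69; limma adjusted p = 0.99995), with -0.06 in replicate 2 and 2.51 between CD34-positive replicate 3 and CD34-negative replicate 4. Without CD34-positive replicate 2 it was 1.41 and without CD34-positive replicate 3 it was 0.13. Leaving out CD34-negative replicate 3 gave 1.07, and leaving out CD34-negative replicate 2 or 4 gave 0.41.

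The remaining private chains did not reach the minimum. Il2rb, the signalling chain that IL-2 and IL-15 share, stood at 0.364, 2.36 and 0.477 FPKM in CD34-positive replicates 1, 2 and 3, against 0.238, 0.511, 0.0765 and 0.0721 FPKM in CD34-negative replicates 1, 2, 3 and 4. It was higher in the CD34-positive library in each of the 4 pairs, by 0.14 to 1.15 on the log2(FPKM + 1) scale. Among all tested genes 21.4% were higher in every pair, and CD34-positive replicate 3 stands in both pairs of number 4. Only CD34-positive replicate 2 exceeded 1 FPKM of Il2rb. Il21r, the private chain of the IL-21 receptor, ranged over 0.432 to 0.771 FPKM over the CD34-positive libraries and 0.135 to 0.617 FPKM over the CD34-negative ones. Il2ra, the high-affinity chain for IL-2, was listed at 0 in 3 of 7 libraries and reached 0.134 FPKM over the CD34-positive and 0.0177 FPKM over the CD34-negative libraries. Il15ra, the high-affinity chain for IL-15, was listed at 0 in all CD34-positive libraries and in all CD34-negative libraries but replicate 1, which had 0.0524 FPKM. The two-sided exact permutation test over the 7 libraries, which cannot give less than p = 0.0571, gave p = 0.171 for Il2rb, 0.171 for Il21r and 0.286 for Il2ra. No depth is known for these libraries, so a value of 0 sets no upper limit.

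By mean level over the 7 libraries, in FPKM and so per length, the order was Il2rg (69.3), Jak3 (51.3), Il4ra (9.13), Il9r (6.20), Il7r (1.95), Il2rb (0.585), Il21r (0.424), Il2ra (0.0415) and Il15ra (0.00749). Il2rg exceeded Jak3 in 6 of 7 libraries, by 0.39 ± 0.39 on the log2(FPKM + 1) scale (SD, n = 7), so the gap was as large as its spread. Jak3 exceeded Il4ra in all 7, by 2.36 ± 0.55. Il4ra and Il9r differed by less than the spread of their gap (0.41 ± 0.83), as did Il7r and Il2rb (0.68 ± 1.39), Il2rb and Il21r (0.06 ± 0.44) and Il2ra and Il15ra (0.05 ± 0.09). For ranks, 30 cytokine receptor chains were chosen: the members, 19 other listed receptors and the linked chains Crlf2, Il13ra1 and Il13ra2. They are not all such chains of the table. Among these 30, Il2rg ranked between 1 and 3 in CD34-positive and between 3 and 5 in CD34-negative libraries. Il4ra ranked between 7 and 16 over all 7 libraries. Csf2rb, the common chain for IL-3, GM-CSF and IL-5, lay lower in CD34-positive cells without overlap, at 85.8 to 110 FPKM over the CD34-positive libraries and 171 to 348 FPKM over the CD34-negative ones. Of 16 tested other cytokine receptors, 4 lay lower and 0 higher without overlap, against 3.01% and 2.67% of all tested genes. In every pair of equal number 8 of the 16 were higher and 5 lower, against 21.4% and 18.9%.

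Ratios within a library do not depend on its scaling. The choice of ratios was made after the values were seen, and they carry no test. Il2rg over Jak3 was 1.18, 1.25 and 1.88 in CD34-positive replicates 1, 2 and 3, against 1.23, 0.857, 1.88 and 1.22 in CD34-negative replicates 1, 2, 3 and 4. Groups overlapped, and replicate 3 of each group had the highest ratio. Il2rg over the summed FPKM of the 7 private chains was 4.45, 4.55 and 5.08 in CD34-positive replicates, against 4.11, 1.66, 2.84 and 3.14 in CD34-negative replicates 1, 2, 3 and 4. In this ratio every CD34-positive library lay above every CD34-negative one, by a small margin over CD34-negative replicate 1. Il2rg alone separated the groups too in FPKM, though not by rank within a library. The private sum overlapped, at 20.0 to 21.0 FPKM in CD34-positive and 8.94 to 22.8 FPKM in CD34-negative libraries. Il2rg over Il9r also overlapped, at 13.0 to 22.8 in CD34-positive and 3.02 to 13.3 in CD34-negative libraries. Il4ra and Il9r together made up 67.2% to 84.6% of the private sum in CD34-positive and 83.2% to 96.2% in CD34-negative libraries. Over Jak1, the kinase of the private chains, Jak3 ranged from 0.788 to 1.92 in CD34-positive and from 0.479 to 2.15 in CD34-negative libraries, and it was highest in both replicate 2 libraries.

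**Figure D3:**
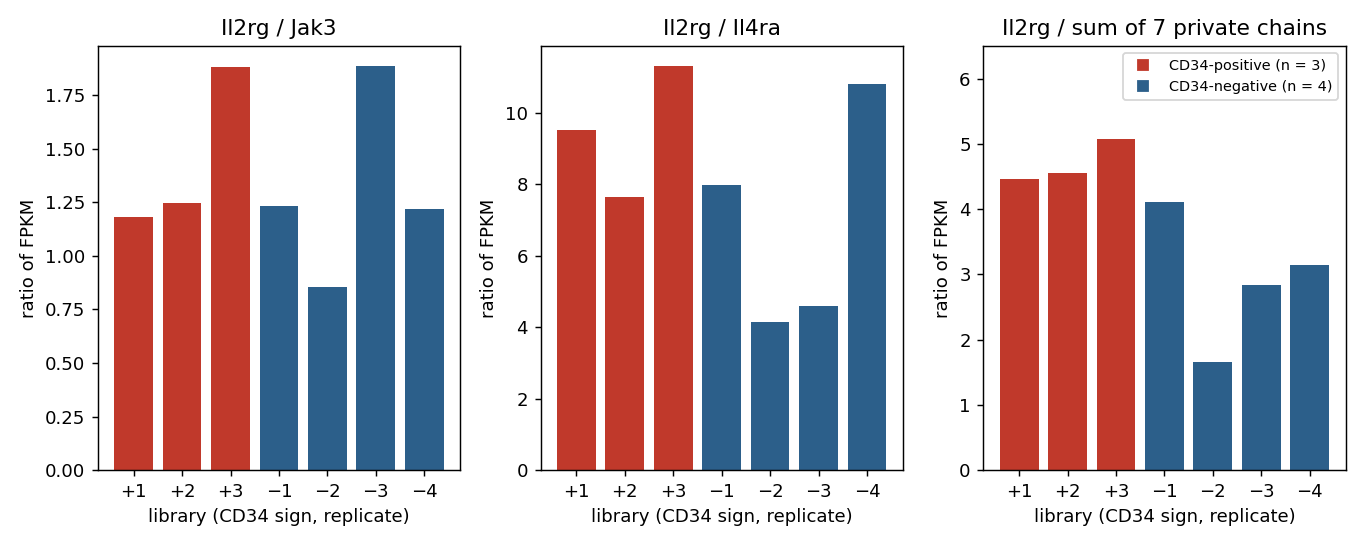
Ratio of Il2rg FPKM to that of Jak3, of Il4ra and of the 7 private chains summed, 1 bar per library, CD34-positive libraries (red, +) left of CD34-negative libraries (blue, −). Il2rg over the private sum was 4.45 to 5.08 in CD34-positive and 1.66 to 4.11 in CD34-negative libraries, while the first 2 ratios overlapped.

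Of the 6 cytokines that use the shared chain, Il2, Il7, Il9 and Il21 were listed at 0 in all 7 libraries. Il15 stood at 3.79, 4.24 and 5.02 FPKM in CD34-positive replicates 1, 2 and 3, against 2.43, 0.380, 0.615 and 0.276 FPKM in CD34-negative replicates 1, 2, 3 and 4. Its groups did not overlap, and its difference of 1.59 (SE 0.37) missed the threshold (limma adjusted p = 0.532). Il4 stood at 9.26, 10.05 and 0.167 FPKM in CD34-positive replicates 1, 2 and 3, against 12.8, 9.03, 1.47 and 0 FPKM in CD34-negative replicates 1, 2, 3 and 4. It was above 9 FPKM in replicates 1 and 2 of both groups and under 1.5 FPKM in the libraries numbered 4. Of the linked genes, Crlf2, the TSLP receptor chain, was higher in every pair of equal number, as were 21.4% of all tested genes. It was at 17.7 to 44.2 FPKM over the CD34-positive libraries and 8.86 to 31.6 FPKM over the CD34-negative ones. The cytokine Il13 was at 0.622 to 2.58 FPKM in CD34-positive libraries and at 2.10 to 53.7 FPKM in CD34-negative libraries, with the highest value in CD34-negative replicate 3. Il13ra1, which completes the IL-13 receptor with Il4ra, reached 0.0148 FPKM in CD34-positive replicate 3 and was listed at 0 elsewhere.

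Of the wider pathway, 64 of 86 genes on 9 lists of the pathway and its surroundings were tested, and none passed over all genes in limma. With an unadjusted limma p under 0.05, 12 lay higher and 5 lay lower, against 3.38% and 2.27% of all tested genes. The lists were chosen with earlier results of these data known. The median difference of the 64 genes was 0.25, beside 0.09 over all tested genes and 0.67 over the 5 tested members. The log2(FPKM + 1) scale was used for all differences here. Of 64, 30 were higher and 15 lower in every pair of equal number, against 21.4% and 18.9% of all tested genes. Of the other Janus kinases, mean Jak1 was 62.1 ± 19.7 FPKM (SD, n = 3) over the CD34-positive libraries and 44.5 ± 20.7 FPKM (SD, n = 4) over the CD34-negative ones, and it was higher in every pair. Jak2, which serves the erythropoietin and IL-3 receptors, had a difference of -0.42, and Tyk2 of -0.11.

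Of 6 tested STAT factors the median difference was 0.16. Stat3, which IL-21 activates, stood at 86.0, 60.8 and 68.3 FPKM in CD34-positive replicates 1, 2 and 3, against 61.2, 14.8, 20.4 and 19.4 FPKM in CD34-negative replicates 1, 2, 3 and 4 (difference 1.49; limma adjusted p = 0.686). Only CD34-negative replicate 1 reached the CD34-positive range. Stat5a, the main STAT of IL-2 and IL-7, had a difference of 0.19, Stat5b of 0.13 and Stat6, the factor of IL-4, of -0.34. Of 7 tested adapters the median was 0.14. In every pair of equal number 3 were higher and 3 lower, against 21.4% and 18.9% of all tested genes. Pik3cd, a lymphocyte PI3-kinase subunit, had a mean of 77.1 ± 16.8 FPKM (SD, n = 3) over the CD34-positive libraries and 44.8 ± 16.9 FPKM (SD, n = 4) over the CD34-negative ones, Ptk2b had a difference of 0.50 and Pik3r1 of 0.42.

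Of 12 tested inhibitors, 5 were higher and 2 lower in every pair of equal number, against 21.4% and 18.9% of all tested genes. Their median difference was 0.21. Socs3 stood at 28.7, 5.14 and 30.8 FPKM in CD34-positive replicates 1, 2 and 3, against 18.7, 0.872, 2.62 and 1.28 FPKM in CD34-negative replicates 1, 2, 3 and 4. Socs5 was at 9.91 to 10.8 FPKM over the CD34-positive libraries and 2.33 to 8.71 FPKM over the CD34-negative ones, without overlap (limma adjusted p = 0.749). Cish, a STAT5 target that restrains cytokine receptors, had a difference of -0.68, and the phosphatase Ptpn2, which acts on Jak1 and Jak3, of -0.61. Of 11 tested target genes, 6 were higher and 2 lower in every pair, against the same shares of all tested genes, with a median of 0.45. Gfi1, a repressor, was at 2.50 to 3.09 FPKM over the CD34-positive libraries and 0.0541 to 1.36 FPKM over the CD34-negative ones. The survival kinase Pim2 was at 105 to 120 FPKM over the CD34-positive libraries and 12.7 to 100 FPKM over the CD34-negative ones, and the repressor Bcl6 at 3.35 to 6.57 FPKM over the CD34-positive libraries and 0.642 to 3.77 FPKM over the CD34-negative ones. Id2, an inhibitor of helix-loop-helix factors, had the largest difference of the list and lay the other way. It stood at 17.0, 32.9 and 30.5 FPKM in CD34-positive replicates 1, 2 and 3, against 45.8, 77.3, 500.1 and 87.9 FPKM in CD34-negative replicates 1, 2, 3 and 4. Its groups did not overlap, and its difference of -2.08 (SE 0.76) missed the threshold (limma adjusted p = 0.725). Of 12 lymphoid programme genes, 7 stayed under 1 FPKM in every library. The median of the 5 tested ones was 1.13, with Tcf7 (3.33), Cd7 (2.04) and Gata3 (1.13) showing the smallest p. Dntt had a difference of 0.80, and Ikzf1 lay the other way (-0.32). Rag2, Ebf1 and Bcl11b were listed at 0 in all 7 libraries.

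**Figure D4:**
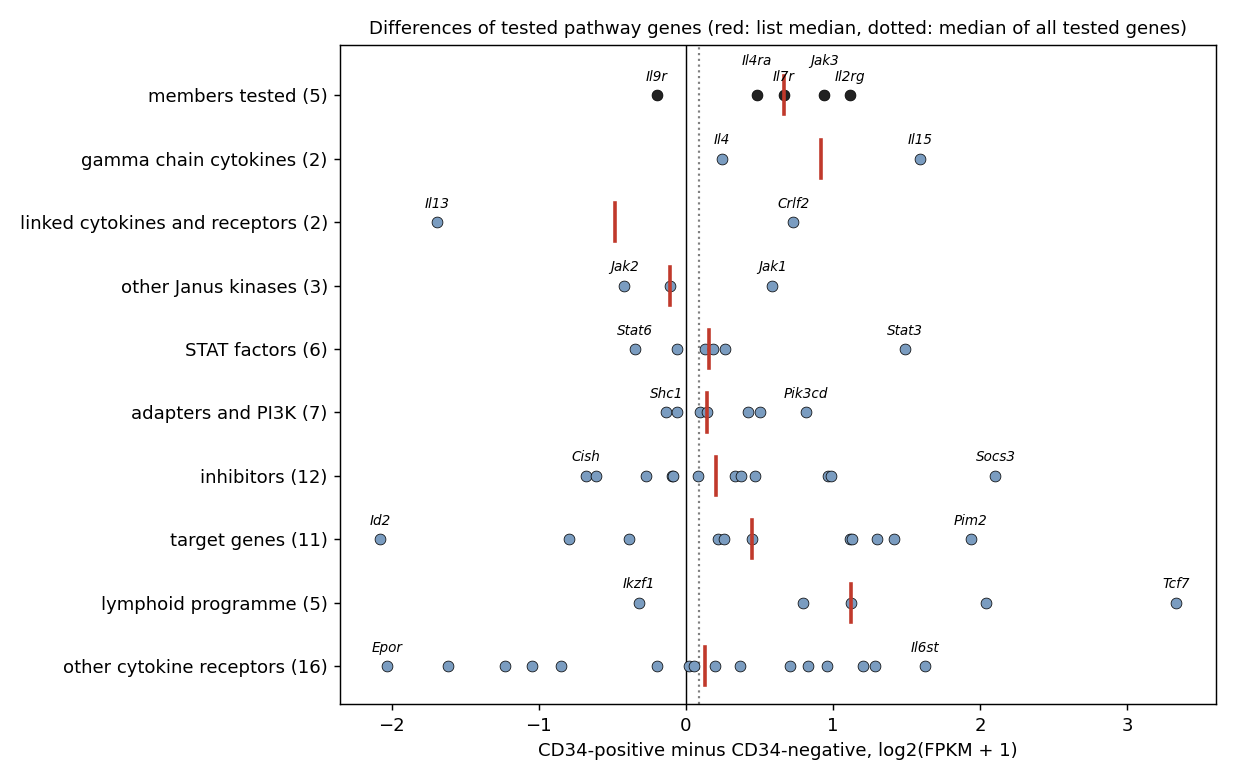
CD34-positive minus CD34-negative difference on the log2(FPKM + 1) scale for each tested gene, by list, with the number of tested genes in brackets, red bars for list medians and a dotted line for the median of all tested genes (0.09). The 5 tested members have a median of 0.67, and the list medians run from -0.48 for linked cytokines and receptors to 1.13 for the lymphoid programme.

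Markers of lymphoid cells, which carry these receptors in vivo, were mostly at or near 0. Of 9 T cell markers 7 stayed under 1 FPKM in every library, and Cd3e and Cd8a were listed at 0, with a list sum of 128 to 316 FPKM over the CD34-positive libraries and 41.6 to 200.2 FPKM over the CD34-negative ones. Lat, which mast cells and megakaryocytes also express, was at 127 to 314 FPKM over the CD34-positive libraries and 40.5 to 198 FPKM over the CD34-negative ones. Of 8 B cell markers 7 stayed under 1 FPKM, with Ms4a1 and Pax5 at 0, and the summed level of the list was 1.13 to 2.32 FPKM over the CD34-positive libraries and 0.396 to 2.07 FPKM over the CD34-negative ones. Of 7 markers of NK and innate lymphoid cells 5 stayed under 1 FPKM, with Ncr1 at 0, while the granzyme gene Gzma stood at 10.1, 86.8 and 93.3 FPKM in CD34-positive replicates 1, 2 and 3, against 13.4, 10.4, 2.76 and 1.38 FPKM in CD34-negative replicates 1, 2, 3 and 4. Erythroid markers, 7 in number, summed to 57.4 to 649 FPKM over the CD34-positive libraries and 146 to 2087 FPKM over the CD34-negative ones. Of these markers, 6 lay lower in CD34-positive cells without overlap, against 3.01% of all tested genes. Hbb-b1 overlapped and made up most of the highest sum in each group. It reached 624 FPKM (CD34-positive replicate 2) and 1405 FPKM (CD34-negative replicate 2). The 7 macrophage and monocyte markers, with Cd14 at 0, summed to 27.4 to 43.0 FPKM over the CD34-positive libraries and 6.39 to 29.7 FPKM over the CD34-negative ones. Most of that sum was Lyz2 and Cd68, while 4 of the 7 stayed under 1 FPKM in every library. The 5 eosinophil and basophil markers summed to 45.4 to 81.1 FPKM over the CD34-positive libraries and 47.5 to 739 FPKM over the CD34-negative ones. Nearly all of this was Mcpt8, at 40.8 to 78.8 FPKM and 46.6 to 737 FPKM. Epx, Prg2 and Ccr3 stayed under 1 FPKM in every library. Il5ra lay the other way, with means of 4.42 FPKM over the CD34-positive and 1.29 FPKM over the CD34-negative libraries. The part of these cell type markers in the member differences was not tested.

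The genes most like each tested member were found by Pearson correlation of log2(FPKM + 1) over the 7 libraries among genes averaging at least 5 FPKM, as a description of 7 libraries that differ in ribosomal protein share. Il2rg was followed most closely by Atp10a (r = 0.996), Slc39a6 (0.990) and Camk2g (0.989), with 105 of 7247 genes above 0.9. Atp10a stood at 7.30 to 8.03 FPKM over the CD34-positive libraries and 1.61 to 5.74 FPKM over the CD34-negative ones. Jak3 was followed by Mlec (0.995), Arl6ip1 (0.993) and Rgs19 (0.990), with 216 genes above 0.9. Il4ra was followed by Jund (0.982), Plaur (0.981) and Sytl3 (0.970), Il9r by Rexo1 (0.970), Pdcd11 (0.963) and Hexim2 (0.960), and Il7r by Nde1 (0.954), Kri1 (0.936) and Arhgap30 (0.930). Il2rg and Jak3 correlated at 0.87 over the same 7 libraries, and Il2rg and Il9r at -0.57.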

How the data were processed

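RNA was sequenced from EML cells sorted by CD34, with 3 CD34-positive and 4 CD34-negative libraries. The authors deposited FPKM values (fragments relative to transcript length and to all mapped fragments) in a table of 20464 rows named by gene symbol. No header states the unit, which was inferred from the values and from Cuffdiff. The submitters' processing notes list the tools Cuffdiff, TopHat and TopHat2 and the builds mm10 and mm9, with no roles. Versions, annotation and strand setting: not given in the sources used here. All 7 value columns were used.

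Since FPKM are not counts, count models and counting intervals were not used, and absolute depth is unknown. In low values a fixed ratio recurred between some libraries, which gives relative depth only: among 793 genes above 0 and under 0.3 FPKM in both replicate 1 libraries, 195 had a CD34-negative value 0.574 times the CD34-positive one, within 0.5%. 105 symbols listed more than once (322 rows, no member among them) were left out. A gene was tested if 3 or more libraries had 1 FPKM or more, which left 9259. Values were taken as log2(FPKM + 1), which understates differences of low genes, and compared with limma 3.58.1 in R 4.3.3 (mean-variance trend, two-sided, Benjamini-Hochberg over all tested genes, threshold 0.05). Differences are CD34-positive minus CD34-negative. Members under the minimum were tested with a two-sided exact permutation test. The limma script was tested on simulated data without differences between description numbers. That test therefore does not show how the fit without a block performs on these libraries.

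The titles number the replicates, and the descriptions number the same libraries 3, 2, 4 and, for CD34-negative replicate 4, 4a. Deviations from the group means correlated at 0.70 in replicate 1, 0.92 in replicate 2, and 0.82 and 0.85 between CD34-positive replicate 3 and CD34-negative replicates 3 and 4. The numbers were therefore taken to pair the libraries, and limma with that number as a block served as an alternative. Members and lists were chosen with earlier results of these data known. The named genes are the 9 members, Cd34, the 3 genes most like each tested member, up to 3 genes of each pathway list with the smallest p, and marker genes near 0. Of the genes this rule names, 1 is not reported here. Other genes named were chosen after their values were seen. Promoter sequences are RefSeq's, build GRCm38.p6.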

Additional observations from a re-analysis of the deposited data

Results flagged for a closer look

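Among the 9 members, Il15ra stood out in the CD34-negative group because 1 library lay far from the other 3. CD34-negative replicate 1 had 0.0524 FPKM and the others were listed at 0, so the distance to its closest neighbour divided by the full range of the group was 1. About 1 in 20 groups of 4 is marked in this way by chance, and a single low value beside zeros always is.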

How the results depend on the processing

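The 5 members tested in limma and Il2ra, Il2rb and Il21r kept the sign of their difference in all 163 other values computed, and no member passed in limma in any (smallest adjusted p = 0.0566). These are not 163 separate checks, since several settings give the same estimate by design. A change of filter or of the mean-variance trend leaves it as it was, and block and library kind give equal estimates. With the block, leaving out either replicate 1 library gives the same estimate, as does either replicate 2 library. With the replicate block by description number no gene passed (smallest adjusted p = 0.0767), and the block changed no call of a member. When each library was left out in turn, between 0 and 7 genes passed as higher and between 0 and 3 as lower, both highest without CD34-negative replicate 1. The block added, 231 higher and 81 lower genes passed when CD34-negative replicate 1 was dropped, 230 and 81 when CD34-positive replicate 1 was, 32 and 125 when CD34-negative replicate 3 was, 1 and 0 when CD34-positive replicate 3 was, and 0 otherwise. Among the pathway lists between 0 and 1 was higher (Tcf7, adjusted p = 0.0444, without CD34-negative replicate 1) and 0 lower, and with the block between 0 and 10 were higher and between 0 and 4 lower. The Il2rg difference ranged from 0.90 to 1.36 and that of Jak3 from 0.74 to 1.195 over the libraries left out. Pseudocount, filters, quantile normalization, no mean-variance trend, median-ratio scaling, the library kind as a covariate, CD34-negative replicates 3 and 4 averaged into 1 sample, both replicate 1 libraries left out and replicates 1 and 2 alone (the last 2 chosen after seeing the data) left 0 genes past the threshold. Il15ra was not refitted. Unknown depth limits what can be read from members under 1 FPKM.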
